A study of Mus musculus with 12 samples.

Results

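A group of 144 genes was higher in Fto knockdown cells than in control cells at every stage of adipocyte formation that was sampled. They are 144 of the 55487 genes in the table. The genes were selected on their measured levels. On the log2(TPM + 1) scale, the lower of the 2 shFTO values minus the higher of the 2 shScram values had to exceed 1 at each of 3 stages, which is a gap of more than 2-fold in TPM + 1 between the nearest libraries. TPM is a share of all transcripts, corrected for transcript length, so levels can be set side by side between genes. Since the rule used the contrast between the lines in every library, the differences between shFTO and shScram given here are a description and carry no test. The changes from stage to stage within a line did not enter the rule and were tested. The rule does favour genes whose libraries lie close together, and that spread enters the stage tests. How much this raised the share of members called, beside that of all genes, was not tested.

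All 12 libraries came from 3T3-L1 cells, an established mouse fibroblast line that forms adipocytes after hormonal induction. Cells carried a lentiviral hairpin against Fto (shFTO) or a scrambled hairpin (shScram) and had been selected with puromycin, so the groups are infected cell populations, and which of the Fto hairpins listed by the study was in the sequenced cells is not named in the sources used here. Each line was sampled as preadipocytes (Pre), at mitotic clonal expansion after the MDI induction medium (MCE) and as mature adipocytes (Diff), with 2 libraries of fragmented total RNA per group. The labels do not say whether the libraries of a group came from separate cultures, so p-values may measure technical spread only. The labels of 1 library disagree: the title of shScram Diff replicate 1 names the control hairpin, its treatment entry names the knockdown, and it was placed by its title.

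FTO removes the methyl group of N6-methyladenosine (m6A) from RNA, and fibroblasts such as 3T3-L1 remodel their matrix and cytoskeleton while they become fat cells. Among the 144 genes, 80 were on at least 1 of 42 gene lists, such as matrix proteins, contractile proteins, secreted cytokines and growth factors, acute phase proteins and products induced by interferon, and 64 were on none. Interferon-stimulated genes are switched on through STAT transcription factors when interferon binds its receptor, and AP-1 factors drive many matrix and cytokine genes after growth factor or stress signals.

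The targeted gene matched the titles in every library. Fto was at 52.7 to 73.5 TPM in the 6 shScram libraries and at 5.51 to 7.47 TPM in the 6 shFTO libraries, and the library with disagreeing labels held 73.5 TPM, among the control values. Between 20853 and 24018 genes were above 0 in a library, and the sequencing depth behind the TPM values is unknown. The shScram Pre libraries stood apart from each other: their log2(TPM + 1) values correlated at 0.939 across tested genes, which are not independent replicates, against 0.990 to 0.993 in the other groups, and the members differed between them by a median of 0.446 log2 units, against 0.0820 to 0.155 elsewhere. Without shScram Pre replicate 1 the rule would choose 158 genes, without shScram Pre replicate 2 it would choose 203, and without shScram Diff replicate 1 it would choose 158. The 144 are among them each time by construction, because leaving out a library can only widen the gaps.

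Over the members, the gap between the nearest libraries had a median of 1.53 log2 units at Pre, 1.74 at MCE and 1.94 at Diff, and its maximum was 4.02, 5.09 and 5.63. The gap was smallest at Pre in 78 members, at MCE in 47 and at Diff in 19, while it was largest at Diff in 68, at MCE in 49 and at Pre in 27. Libraries that stand apart narrow the gap, and members differed between the shScram libraries by a median of 0.446 log2 units at Pre, 0.133 at MCE and 0.155 at Diff. The part of this in the order of the stages was not tested. For the 15968 genes with at least 1 TPM in at least 2 of the 12 libraries, a gap over 1 with shFTO higher was met by 430 genes (2.69%) at Pre, 630 (3.95%) at MCE and 775 (4.85%) at Diff, and by the 144 members (0.902%) at all 3 stages. The mirrored gap, with shFTO lower, was met by 210 genes (1.32%) at Pre, 432 (2.71%) at MCE, 441 (2.76%) at Diff and 56 (0.351%) at all 3 stages. These counts follow from the rule and are given for scale only. Just inside the limit were Slc2a1 with a smallest gap of 1.0005, Heg1 with 1.0017 and Nectin2 with 1.0022, and just outside were Oas1a with 0.9976, Flt1 with 0.9964 and Igfbp3 with 0.9938.

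The members spanned a wide range of abundance. Their mean over the 6 shFTO libraries ran from 2.26 to 741 TPM with a median of 25.04 TPM, and over the 6 shScram libraries from 0 to 273 TPM with a median of 4.14 TPM. In shFTO cells 104 members averaged at least 10 TPM and 22 at least 100 TPM, while 46 and 4 did so in shScram cells. In 112 members all 6 shFTO libraries lay above all 6 shScram libraries whatever the stage, as they did in 980 of the tested genes. In the other 32 a shScram library of one stage reached into the shFTO range of another stage. Under 1 TPM in every shScram library were 21 members, and H1f10, a linker histone gene named after its values were seen, was listed at 0 in all 6 of them and at 3.11 to 7.76 TPM in shFTO. All 144 passed the filter on low values, since the rule itself forces more than 1 TPM in every shFTO library, and 115 of them reached 1 TPM in at least 2 shScram libraries.

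**Figure D1:**
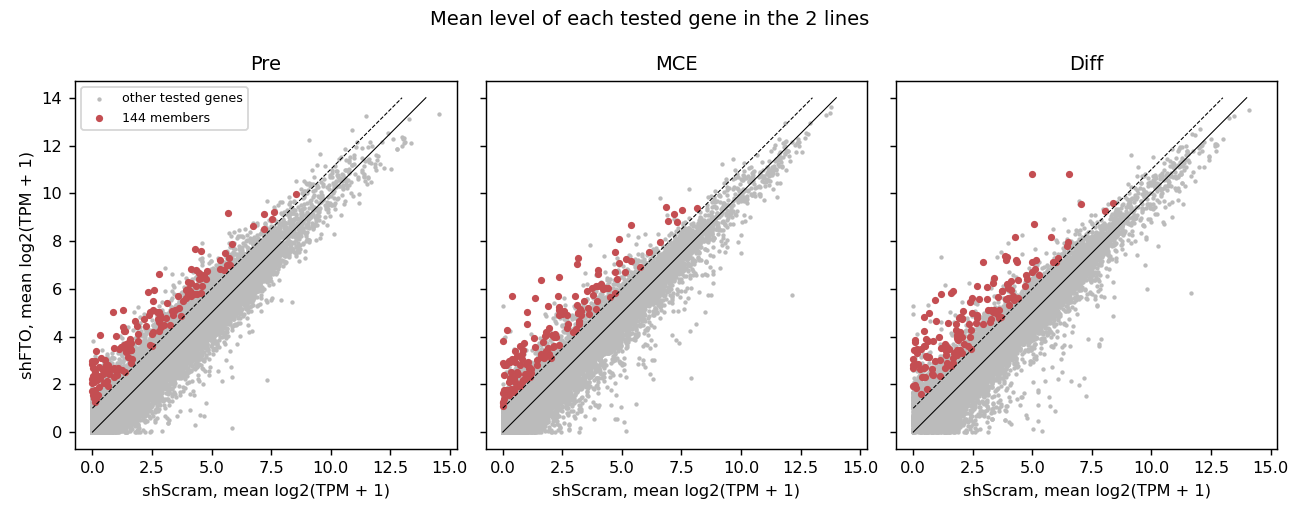
Mean log2(TPM + 1) of each of the 15968 tested genes in shScram (horizontal axis) and shFTO (vertical axis) at Pre, MCE and Diff, each mean over 2 libraries, with the 144 members in red and all other tested genes in grey. The solid line marks equal levels and the dashed line a difference of 1, above which every member lies at each stage by the rule that chose it.

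Which members changed between stages was asked within each line, with limma on log2(TPM + 1), Benjamini-Hochberg adjustment over all 15968 tested genes, and a call at an adjusted p under 0.05 and a fold change over 2. The spread of a gene was estimated from all 12 libraries together, so its SE is the same for every step in either line. The wide shScram Pre pair thus enters the SE of the shFTO steps as well. From Pre to MCE in shFTO cells, 26 members (18.1%) rose, against 4.56% of all tested genes, and 32 (22.2%) fell, against 10.4%. The other 86 were not called, and the median change was -0.127 over the members and -0.183 over all tested genes. From MCE to Diff in shFTO cells, 36 (25%) rose against 10.7% of all, and 8 (5.56%) fell against 1.94%, with medians of 0.475 and 0.168. In shFTO 68 members were called at neither step. Of the 144, 29 reached 1 TPM in fewer than 2 shScram libraries and so passed the filter on low values through shFTO. Among the other 115, 22 rose and 26 fell from Pre to MCE in shFTO, and 26 rose and 8 fell from MCE to Diff.

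In shScram cells fewer members were called. From Pre to MCE, 16 (11.1%) rose and 25 (17.4%) fell, against 6.73% and 11.5% of all tested genes, with a median of -0.0678 over the members and -0.168 over all. From MCE to Diff, 19 (13.2%) rose and 8 (5.56%) fell, against 8.57% and 2.5%, with medians of 0.254 and 0.232. All of these calls were among the 115 members that reached 1 TPM in at least 2 shScram libraries, and 93 members were called at neither step. Changes of genes at low TPM come out too small on the log2(TPM + 1) scale, and members were lower in shScram. The part of this in the counts was not tested. Nor was the difference between the lines in stage change, since the rule used both lines. Without shScram Pre replicate 2, the step from Pre to MCE had 24 members higher and 18 lower, while the counts over all tested genes went from 1075 higher and 1830 lower to 2508 and 2625. Without shScram Pre replicate 1, 17 members were higher and 35 lower, and over all tested genes 698 and 1936. Without shScram Diff replicate 1, the step from MCE to Diff had 16 members higher and 7 lower.

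Part of the balance between rises and falls rested on the scale. The median change over all tested genes, -0.183 and 0.168 in shFTO and -0.168 and 0.232 in shScram as deposited, was between -0.0458 and 0.0146 after quantile normalization or median-ratio scaling. With quantile normalization, members higher and lower were 29 and 12 in shFTO from MCE to Diff, 21 and 21 in shScram from Pre to MCE, and 10 and 12 in shScram from MCE to Diff. With median-ratio scaling they were 31 and 18, 21 and 22, and 13 and 12. In shFTO from Pre to MCE they were 30 and 27 under each. Over all tested genes the calls went from 728 higher and 1659 lower to 1003 and 1046 in shFTO from Pre to MCE with quantile normalization, from 1714 and 309 to 871 and 621 in shFTO from MCE to Diff, and from 1369 and 399 to 655 and 693 in shScram from MCE to Diff. Between the lines the all-gene median was within 0.081 of 0 under every scaling, and all 144 members kept a higher mean in shFTO at each stage.

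**Figure D2:**
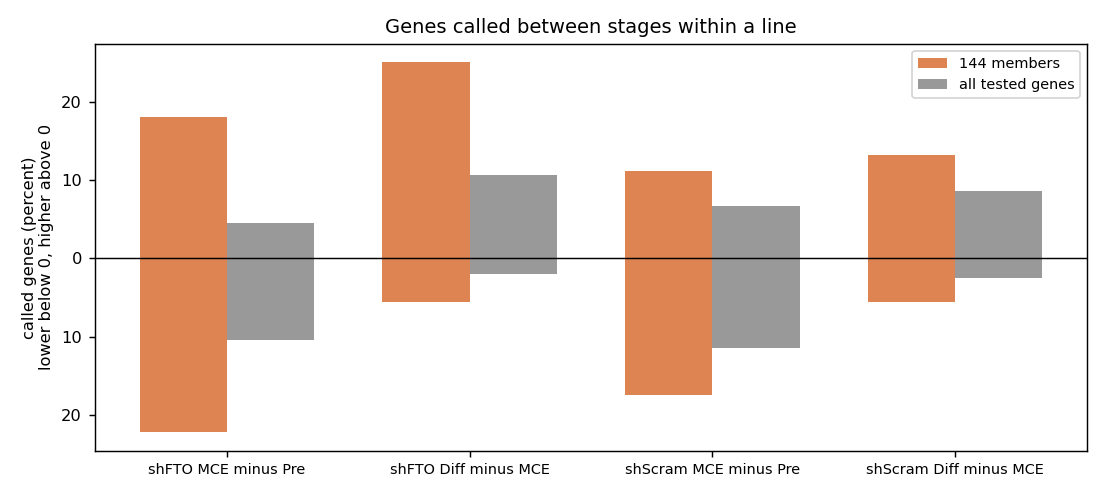
Share of the 144 members (orange) and of all 15968 tested genes (grey) called higher (bars above 0) or lower (bars below 0) in each of the 4 stage contrasts within a line, in percent. The tallest pair above 0 is shFTO from MCE to Diff, with 25% of members and 10.7% of all tested genes.

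When stage calls of both lines were set side by side, no member rose in one line and fell in the other at the same step. From Pre to MCE, 15 members rose in both lines and 20 fell in both, while 11 rose and 12 fell with a call in shFTO alone. From MCE to Diff, 11 rose in both, 3 fell in both (Dusp2, Hist1h4m and Snai1), and 25 rose with a call in shFTO alone. A call in one line alone does not show that the lines differ. The commonest course with calls at both steps in shFTO was a fall followed by a rise, in 17 members, and in shScram 12 members took that course. Joint calls and courses were not counted over all tested genes, so these counts do not set the members apart from other genes. Both steps of a line share the MCE libraries, so an error there would push the steps in opposite directions. The mean level was highest at Diff in 74 members in shFTO (51.4%, against 37.6% of all tested genes) and in 60 in shScram (41.7%, against 39.8%). The adipocyte marker list (Adipoq, Plin1, Cidec, Lep and Fabp4) summed to 1028 and 982 TPM in shScram at Diff and to 147 and 125 TPM in shFTO, with Lep at or near 0 in all libraries, so the libraries labelled as mature adipocytes differed in these markers between the lines. The part of this in the members' values was not tested. In bulk RNA, fewer cells of a type and less RNA per cell cannot be told apart.

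The member with the widest gap at its closest stage was Slit3 (ENSMUSG00000056427, chr11:35121224-35708507, plus strand), a secreted ligand of the Robo guidance receptors. In shScram cells it was at 0.651 and 1.01 TPM at Pre, 4.54 and 3.71 TPM at MCE and 6.72 and 6.73 TPM at Diff, and in shFTO cells at 31.6 and 32.02, 94.5 and 84.2, and 139 and 141 TPM at the same stages. No shFTO value came near a shScram value of any stage, the gap being 4.02, 3.94 and 4.18 log2 units, and the level went up in both lines: from Pre to MCE Slit3 rose by 1.46 ± 0.14 (SE) in shFTO (limma, adjusted p = 0.000117) and by 1.49 ± 0.14 in shScram (adjusted p = 9.38e-05). Gene models on both strands overlap Slit3, so its count is uncertain to that extent. Another guidance molecule, the membrane-anchored semaphorin Sema7a, was at 3.13 and 7.27 TPM at Pre, 4.37 and 4.02 TPM at MCE and 6.51 and 5.08 TPM at Diff in shScram. The knockdown line had 42.3 and 44.5, 27.96 and 30.4, and 45.98 and 46.4 TPM, with no stage change called in either line. The transmembrane semaphorin Sema4c was the third member of the guidance list, with a smallest gap of 1.13 at Pre. Of the 45 other tested genes of that list, a gap over 1 with shFTO higher was found in 2 at Pre, 7 at MCE and 6 at Diff, and with shFTO lower in 3, 3 and 4.

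Of the acute phase and complement list, 4 of 26 tested genes were members. Saa3 (ENSMUSG00000040026, chr7:46711998-46715700, minus strand), a serum amyloid A protein, was at 2.08 and 0.952 TPM at Pre, 35.6 and 46.4 TPM at MCE and 31.6 and 29.1 TPM at Diff in shScram. The shFTO libraries held 42.1 and 26.6, 403 and 407, and 1949 and 1619 TPM. The control libraries were alike at MCE and Diff, while those of the knockdown line were far higher at Diff than at MCE. The step from MCE to Diff was 2.13 ± 0.26 log2 units in shFTO (limma, adjusted p = 0.000681) and -0.41 ± 0.26 in shScram (adjusted p = 0.291). Hp (ENSMUSG00000031722, chr8:109575128-109579172, minus strand), haptoglobin, which binds free haemoglobin, was at 0 and 0.254 TPM at Pre, 22.1 and 28.6 TPM at MCE and 95.2 and 91.1 TPM at Diff in shScram. In shFTO it was at 10.5 and 8.498, 182 and 187, and 1837 and 1794 TPM. It rose at both steps in both lines, by 4.15 ± 0.16 and 3.29 ± 0.16 in shFTO (limma, adjusted p = 9.64e-07 and 1.55e-05) and by 4.55 ± 0.16 and 1.85 ± 0.16 in shScram (adjusted p = 5.37e-07 and 0.000175). The shFTO values at MCE thus lay above the shScram values at Diff. Complement C4b was at 0 and 0.162 TPM at Pre, 5.97 and 5.03 TPM at MCE and 8.08 and 7.06 TPM at Diff in shScram. The knockdown line had 4.42 and 4.92, 19.9 and 18.6, and 67.3 and 66.02 TPM. It too rose at both steps in shFTO. Serping1, the inhibitor of the first complement component, took another course and was under 1 TPM in all shScram libraries, while shFTO held 6.47 and 7.42, 1.61 and 1.04, and 11.5 and 10.6 TPM. It fell by 1.78 ± 0.18 and then rose by 2.39 ± 0.18 in shFTO (limma, adjusted p = 0.00012 and 6.02e-05). Of the 22 other genes of the list, 4 had a gap over 1 with shFTO higher at MCE and 6 with shFTO lower, so the list was mixed. The serum amyloid genes are near copies of one another, and reads could have been split between them.

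The remaining members among the 12 with the widest gaps have varied roles. H2-Q4 (ENSMUSG00000035929, chr17:35379617-35385290, plus strand), an MHC class I heavy chain with close paralogs, was at 13.6 and 25.8 TPM at Pre, 13.9 and 15.7 TPM at MCE and 18.3 and 21.2 TPM at Diff in shScram. For shFTO the values were 196 and 206, 109 and 113, and 142 and 136 TPM, without a called stage change. Ccn5, a matricellular protein of the CCN family, was at 27.6 and 94.4 TPM at Pre, 113 and 117 TPM at MCE and 20.2 and 16.5 TPM at Diff in shScram. Its shFTO values were 572 and 576, 689 and 672, and 283 and 286 TPM. Its shScram Pre libraries stood far apart from each other, and it fell by 2.58 ± 0.43 from MCE to Diff in shScram (limma, adjusted p = 0.00323). Syt13 (ENSMUSG00000027220, chr2:92915098-92956058, plus strand), of the synaptotagmin family of vesicle proteins, stayed under 0.5 TPM in all shScram libraries and was at 5.41 and 5.33, 51.6 and 49.7, and 28.4 and 26.03 TPM in shFTO. It rose by 3.02 ± 0.16 from Pre to MCE in shFTO (limma, adjusted p = 3.66e-06), and its gap at MCE, 5.09, was the widest of any member at that stage.

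Slc40a1, the iron exporter ferroportin, dipped at MCE in both lines. It was at 15.7 and 17.6 TPM at Pre, 0.952 and 0.621 TPM at MCE and 4.57 and 4.57 TPM at Diff in shScram. In shFTO cells the levels were 103 and 121, 9.57 and 9.95, and 30.3 and 31.7 TPM. It fell by 3.39 ± 0.14 and then rose by 1.57 ± 0.14 in shFTO (limma, adjusted p = 1.53e-06 and 0.000169), and in shScram it fell by 3.31 ± 0.14 and rose by 1.65 ± 0.14 (adjusted p = 1.18e-06 and 0.000165). Its shScram Pre libraries lay above its shFTO MCE libraries, which makes it one of the 32 members whose ranges cross between stages. Rgs16, which speeds the shut-off of G proteins, was at 7.87 and 7.37, 6.301 and 7.02, and 25.9 and 22.3 TPM in shFTO, where it rose from MCE to Diff by 1.71 ± 0.27 (limma, adjusted p = 0.0021), and at most 1.44 TPM in shScram. Inava, an adaptor in innate immune signalling, was at 11.7 to 15.5 TPM in shFTO and at most 1.43 TPM in shScram. Gstk1, a glutathione transferase of mitochondria and peroxisomes, was at 5.76 to 14.2 TPM in shFTO and was listed at 0 in 4 of 6 shScram libraries, the highest being 0.440 TPM.

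**Figure D3:**
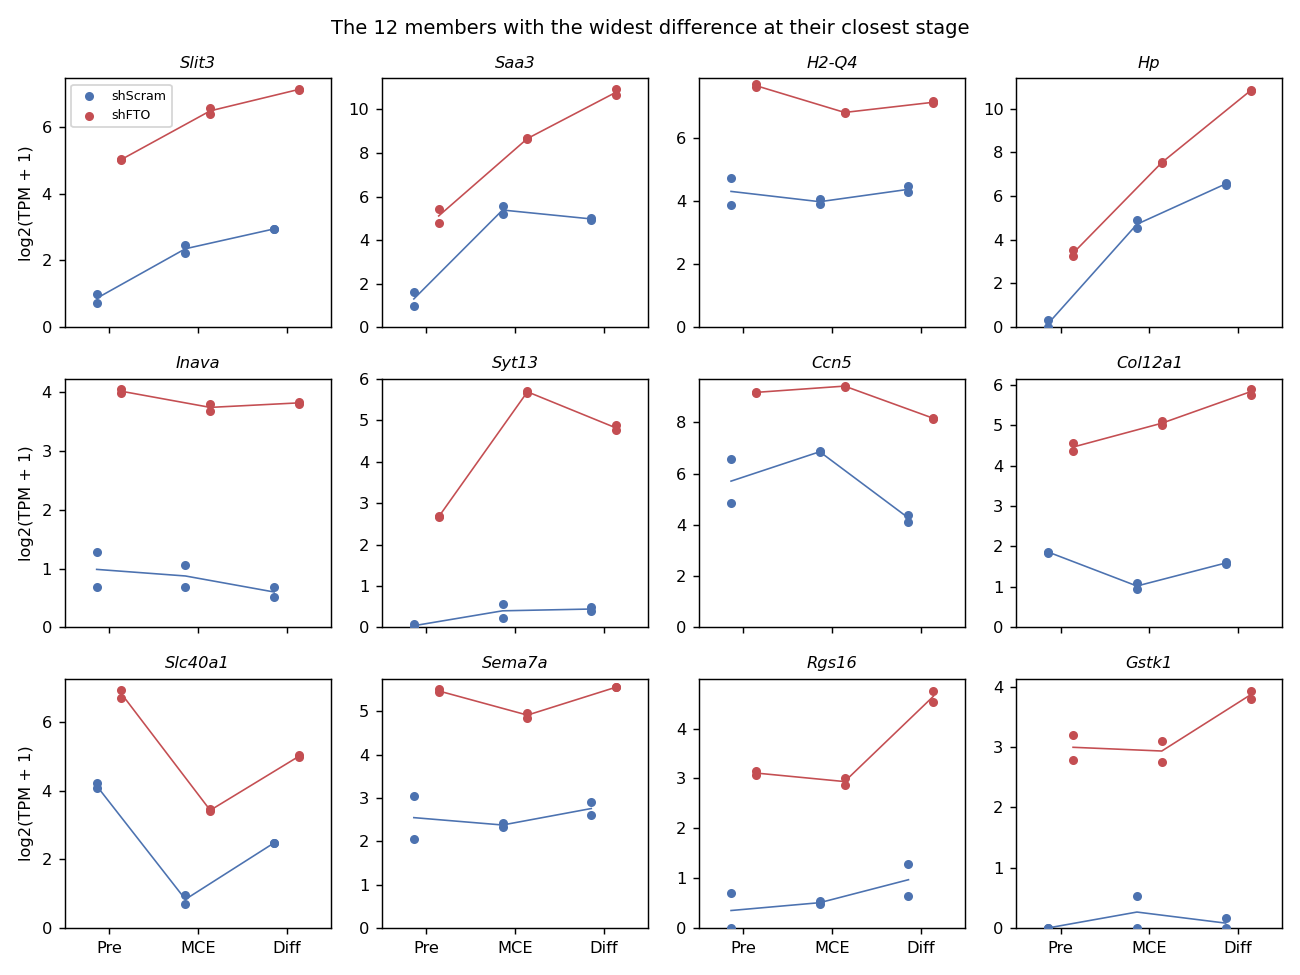
Log2(TPM + 1) of the 12 members with the widest gap at their closest stage, with 1 point per library (2 per group), shScram in blue, shFTO in red and lines through the group means at Pre, MCE and Diff. The red points lie above the blue points at every stage by selection, and the courses differ, with Saa3 and Hp climbing in shFTO and Slc40a1 dipping at MCE in both lines.

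The members at the highest levels were secreted or structural proteins for the most part. By mean over the 6 shFTO libraries they were Saa3 at 741 TPM, Rcn3 at 679, Hp at 670, Plac8 at 624, Col5a1 at 579, Ccn5 at 513, Acta2 at 414 and Junb at 313. Rcn3, a calcium-binding protein of the secretory pathway, was at 140.4 and 274 TPM at Pre, 276 and 285 TPM at MCE and 355 and 309 TPM at Diff in shScram and at 620.5 and 577, 650.5 and 687, and 745 and 797 TPM in shFTO, a flat course in both lines with no call. Plac8, a small cysteine-rich protein, was at 177 and 189.8 TPM at Pre, 189 and 178 TPM at MCE and 135 and 125 TPM at Diff in shScram. In shFTO it was at 503 and 477, 615 and 642, and 789 and 720.4 TPM, again with no stage call. Rcn3 at 273 TPM, Col5a1 at 195 and Plac8 at 166 were also the highest members in shScram cells, so these abundant members were not silent in the control line. Saa3 and Hp, in contrast, were low in its Pre libraries.

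Extracellular matrix genes formed the largest group, with 8 of 55 tested matrix glycoproteins and 4 of 25 tested collagens. Among collagens, Col12a1, which associates with fibril surfaces, was at 2.67 and 2.61 TPM at Pre, 1.13 and 0.943 TPM at MCE and 2.07 and 1.96 TPM at Diff in shScram. The shFTO libraries held 19.5 and 22.4, 33.3 and 30.8, and 52.8 and 58.4 TPM, with no called change and a gap that was 2.48 at Pre and 4.13 at Diff. Col5a1, a chain of fibrils that carry the main collagens, was at 79.5 and 268 TPM at Pre, 148 and 145 TPM at MCE and 272 and 258 TPM at Diff in shScram. The knockdown line had 545 and 582, 581 and 546, and 600.5 and 621 TPM. Its shScram Pre libraries stood far apart, and its gap at that stage was 1.02. Col28a1, a bead-like collagen, rose from MCE to Diff in both lines, by 2.52 ± 0.18 in shFTO and 1.16 ± 0.18 in shScram (limma, adjusted p = 5.28e-05 and 0.00212), to 61.1 and 57.04 TPM against 2.27 and 2.04 TPM. The transmembrane collagen Col23a1 was at or under 0.547 TPM in shScram and rose by 2.81 ± 0.17 from Pre to MCE in shFTO (limma, adjusted p = 8e-06).

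Among matrix glycoproteins, Fbn1, the main protein of microfibrils, was at 38.1 and 41.6 TPM at Pre, 27.8 and 22.6 TPM at MCE and 13.3 and 14.3 TPM at Diff in shScram. For shFTO the values were 139.8 and 152, 107 and 101, and 139 and 155 TPM. The tenascin Tnc was at 25.2 and 27.1 TPM at Pre, 7.96 and 7.32 TPM at MCE and 13.01 and 15.7 TPM at Diff in shScram. The shFTO libraries held 85.8 and 84.4, 131 and 128, and 148 and 170.2 TPM. It fell by 1.65 ± 0.13 from Pre to MCE in shScram (limma, adjusted p = 2.89e-05), and the change of 0.60 ± 0.13 in shFTO did not pass the fold limit. In shFTO Lama5, a laminin chain of basement membranes, fell by 1.98 ± 0.14 and then rose by 2.15 ± 0.14 (limma, adjusted p = 1.77e-05 and 3.91e-05), and Nid2, a nidogen, rose by 2.56 ± 0.14 from MCE to Diff (adjusted p = 2.76e-05). Lama5 stayed under 0.5 TPM in all shScram libraries. Of the proteins that hold latent TGF-beta in the matrix, Ltbp4 rose from MCE to Diff in shFTO by 2.23 ± 0.35 (limma, adjusted p = 0.00202), and Ltbp3 lay at 228 to 254 TPM in shFTO and 35.3 to 97.6 TPM in shScram with no call. Emilin2, a glycoprotein of elastic fibres, rose late in shFTO by 1.71 ± 0.18 (limma, adjusted p = 0.000299) to 9.67 and 10.5 TPM and stayed under 0.4 TPM in shScram. In all, 4 of the 8 rose from MCE to Diff in shFTO, as did 14 of the 47 other tested genes of the list. In shScram 0 of the 8 rose and 1 fell at that step, against 12 and 3 of the 47. Of these 47, 4, 6 and 9 had a gap over 1 with shFTO higher at the successive stages and 3, 6 and 6 with shFTO lower. Of the 21 other collagens, 3, 3 and 5 were on the higher side and 1, 0 and 1 on the lower.

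Inhibitors and enzymes that act on the matrix added 4 of 80 tested genes. Timp3, a matrix-bound inhibitor of metalloproteinases, was at 3.18 and 5.18 TPM at Pre, 2.25 and 2.21 TPM at MCE and 1.73 and 1.77 TPM at Diff in shScram. For shFTO the values were 53.4 and 62.7, 11.7 and 13.8, and 22.7 and 23.4 TPM. It fell by 2.1 ± 0.19 from Pre to MCE in shFTO (limma, adjusted p = 8.35e-05). The metalloproteinase Adamts7 had a smallest gap of 1.14 at Pre, and Serping1 was given with the complement genes. Of the 76 other genes of this list, 5, 8 and 14 had a gap over 1 with shFTO higher at Pre, MCE and Diff and 0, 6 and 5 with shFTO lower.

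The smooth muscle contractile list had 4 members of 16 tested genes, and these 4 fell from Pre to MCE in both lines. Acta2, smooth muscle actin, was at 307 and 453 TPM at Pre, 8.93 and 6.902 TPM at MCE and 23.3 and 30.5 TPM at Diff in shScram. Its shFTO values were 1049 and 959, 165 and 145, and 82.6 and 83.9 TPM. It fell by 5.40 ± 0.21 log2 units from Pre to MCE in shScram and then rose by 1.64 ± 0.21 (limma, adjusted p = 5.82e-07 and 0.000937), whereas in shFTO it fell by 2.69 ± 0.21 (adjusted p = 3.02e-05) with no call after MCE. The shScram Pre libraries therefore held more Acta2 than the shFTO MCE libraries. Tagln, transgelin, an actin-bundling protein, was at 3.65 and 9.203 TPM at Pre, 1.36 and 0.741 TPM at MCE and 0.761 and 1.04 TPM at Diff in shScram. The shFTO libraries held 98.00 and 98.8, 22.98 and 21.3, and 6.52 and 7.43 TPM. It fell at both steps in shFTO, by 2.11 ± 0.32 and 1.54 ± 0.32 (limma, adjusted p = 0.00133 and 0.00809). The adjusted p of the late fall was 0.0554 without shFTO MCE replicate 1 and 0.0571 without shFTO Diff replicate 1. Tagln overlaps a gene on the other strand. Enteric actin Actg2 followed the same course at a lower level, from 23.1 and 25.2 TPM at Pre to 1.98 and 2.13 TPM at Diff in shFTO. The LIM protein Fhl2 was at 44.5 and 53.2 TPM at Pre, 4.61 and 4.69 TPM at MCE and 10.4 and 14.04 TPM at Diff in shScram. In shFTO cells the levels were 131 and 120.1, 29.2 and 31.1, and 59.9 and 59.05 TPM. Of the 12 other genes, 5 fell at that step in shFTO and 4 in shScram. A gap over 1 with shFTO higher was found in 1, 2 and 0 of them at the 3 stages and with shFTO lower in 0, 1 and 2, so at Diff none of these was on the members' side.

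Fast skeletal troponin subunits rose at the end. Tnnt3, the tropomyosin-binding subunit, was at 6.61 and 2.57 TPM at Pre, 3.76 and 3.72 TPM at MCE and 27.00 and 40.4 TPM at Diff in shScram and at 36.6 and 22.9, 14.9 and 14.8, and 441 and 391 TPM in shFTO, and from MCE to Diff it rose by 4.72 ± 0.35 in shFTO and by 2.84 ± 0.35 in shScram (limma, adjusted p = 6.02e-05 and 0.000819). Its neighbour Tnni2, the inhibitory subunit, was at 2.67 and 1.73 TPM at Pre, 1.43 and 0.847 TPM at MCE and 2.46 and 3.81 TPM at Diff in shScram. In shFTO it was at 7.15 and 7.497, 4.202 and 5.38, and 27.2 and 24.8 TPM. It rose late in shFTO by 2.23 ± 0.23 (limma, adjusted p = 0.000308). Markers of other cell types were read beside these values. The smooth muscle list, of which Acta2, Tagln and Actg2 are members, summed to 10.3 to 467 TPM in the shScram libraries and 94.7 to 1174 TPM in the shFTO libraries, and its markers Cnn1 and Myh11 were under 1 TPM in every library. Lmod1, also on this list, was at 0.700 to 8.15 TPM in shScram and 0.956 to 3.79 TPM in shFTO. At Diff it was lower in shFTO, at 3.14 and 2.59 TPM against 8.15 and 7.94 TPM. The skeletal muscle list, which holds Tnnt3, summed to 7.04 to 48.4 TPM in shScram and 21.1 to 452 TPM in shFTO. Des, also on this list, was at 3.28 to 7.995 TPM in shScram and 6.32 to 13.2 TPM in shFTO. It was higher in shFTO at each stage. Myod1 was at 0 in all 12 libraries, and Myog, Myh3 and Ckm were under 0.1 TPM. The macrophage list summed to at most 10.98 TPM, with Adgre1 at 0 and Cd68 between 0.457 and 3.04 TPM. Lyz2, another macrophage marker, was higher in shFTO at Pre (7.27 and 6.93 against 3.24 and 4.38 TPM). At MCE Lyz2 was lower in shFTO, and at Diff its values in the lines overlapped. The endothelial list summed to at most 1.28 TPM, with Kdr at 0 and Pecam1 between 0.0845 and 0.495 TPM. The epithelial list summed to at most 8.29 TPM, nearly all of it Krt19. The neuron and glia list summed to 9.06 to 25.9 TPM in shScram and 12.6 to 17.6 TPM in shFTO, and its gene Tubb3 is a member. Map2, on the same list, was at 7.61 to 25.7 TPM in shScram and 6.86 to 12.3 TPM in shFTO, and was lower in shFTO at Pre and Diff. Fibroblast markers summed to 2633 to 7800 TPM in shScram and 5305 to 9390 TPM in shFTO. The part of other cell types in the members' values was not tested beyond these levels.

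**Figure D4:**
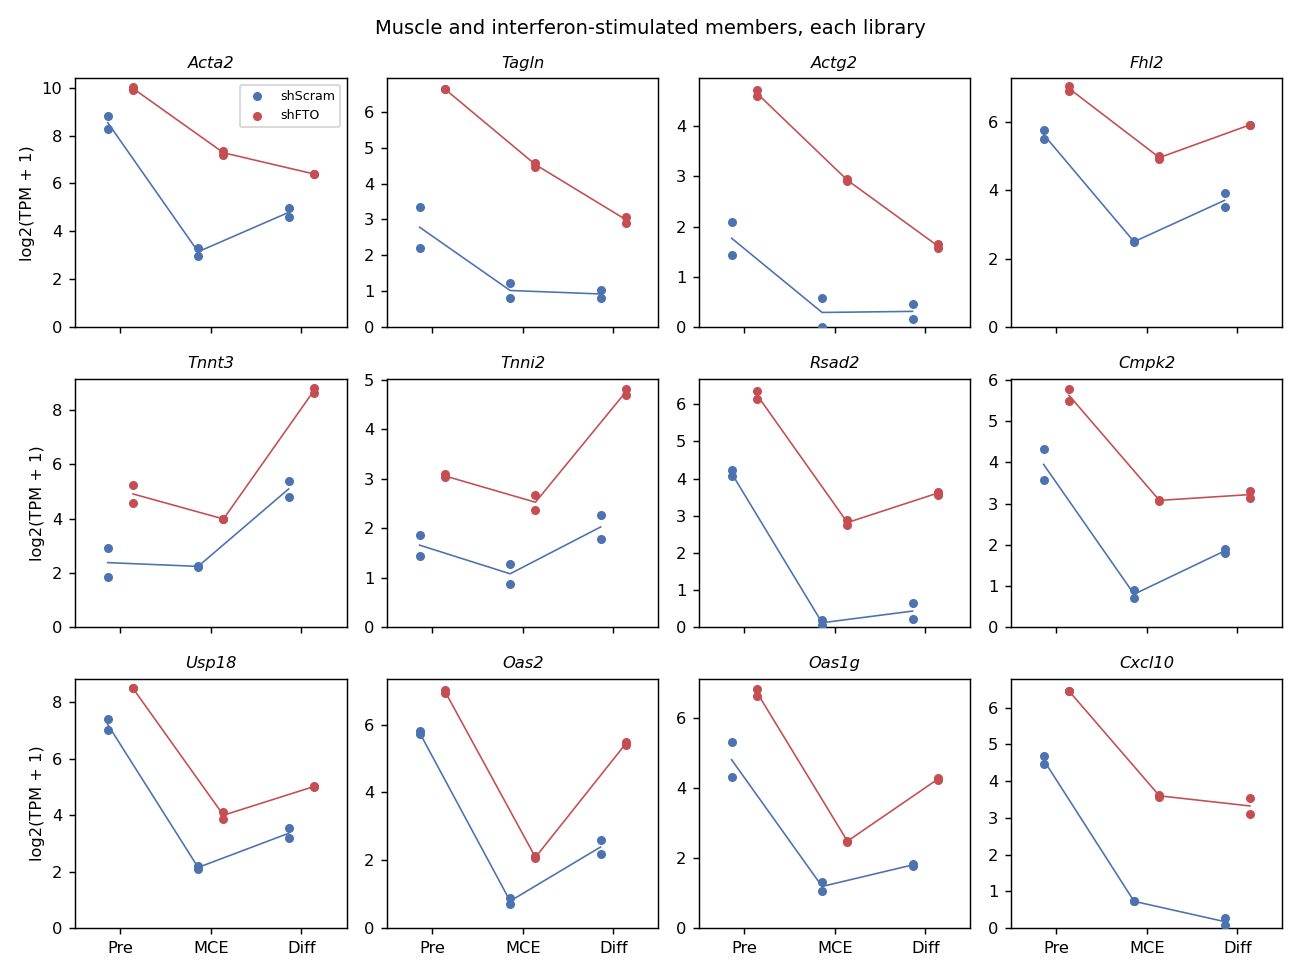
Log2(TPM + 1) of 6 muscle and 6 interferon-linked members at Pre, MCE and Diff, with 1 point per library (2 per group), shScram in blue, shFTO in red and lines through the group means. Acta2, Tagln, Actg2, Fhl2 and the interferon-linked genes drop from Pre to MCE in both lines, whereas Tnnt3 and Tnni2 are highest at Diff.

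Interferon-stimulated genes fell steeply from Pre to MCE in both lines. Of 71 tested genes on that list 5 were members, and all 5 fell from Pre to MCE in each line, as did 52 of the 66 other genes in shFTO and 48 in shScram. Usp18, a protease that removes the ubiquitin-like ISG15 and dampens interferon signalling, was at 128 and 169.8 TPM at Pre, 3.58 and 3.27 TPM at MCE and 8.09 and 10.5 TPM at Diff in shScram. The knockdown line had 359 and 360.1, 13.6 and 16.4, and 31.5 and 31.1 TPM. It fell by 4.50 ± 0.17 from Pre to MCE in shFTO and fell by 5.07 ± 0.17 in shScram (limma, adjusted p = 8.34e-07 and 4.16e-07). Oas2, an oligoadenylate synthetase that senses double-stranded RNA, was at 51.4 and 55.03 TPM at Pre, 0.831 and 0.638 TPM at MCE and 3.56 and 5.01 TPM at Diff in shScram. For shFTO the values were 122 and 129, 3.34 and 3.15, and 43.9 and 41.3 TPM. From MCE to Diff Oas2 rose in shFTO by 3.36 ± 0.15 (limma, adjusted p = 1.55e-05), and in shScram by 1.60 ± 0.15 (adjusted p = 0.000272). The related Oas1g was at 18.8 and 39.00 TPM at Pre, 1.08 and 1.49 TPM at MCE and 2.41 and 2.57 TPM at Diff in shScram. The shFTO libraries held 113 and 99.4, 4.66 and 4.54, and 18.6 and 17.8 TPM. It has close paralogs beside it, and reads may have been split among them. Rsad2, the antiviral enzyme viperin, was at 17.6 and 15.6 TPM at Pre, 0.0452 and 0.141 TPM at MCE and 0.1701 and 0.575 TPM at Diff in shScram. Its shFTO values were 68.98 and 81.2, 5.76 and 6.35, and 10.9 and 11.6 TPM. Its neighbour Cmpk2, a mitochondrial nucleotide kinase, was at 10.9 and 19.1 TPM at Pre, 0.635 and 0.8695 TPM at MCE and 2.75 and 2.47 TPM at Diff in shScram. In shFTO cells the levels were 43.5 and 53.4, 7.57 and 7.31, and 7.75 and 8.89 TPM. All 5 thus had higher shScram levels at Pre than shFTO levels at MCE. Of the 66 other genes of the list, none had a gap over 1 with shFTO higher at Pre, 15 had one at MCE and 17 at Diff, while 1, 3 and 0 had the mirrored gap.

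Chemokine and antigen presentation genes were also present, and are named after their values were seen. Cxcl10, a chemokine for T cells, was at 24.6 and 21.2 TPM at Pre, 0.651 and 0.655 TPM at MCE and 0.0609 and 0.197 TPM at Diff in shScram. In shFTO cells the levels were 86.9 and 86.99, 10.9 and 11.4, and 10.6 and 7.64 TPM. It fell from Pre to MCE in both lines, by 2.86 ± 0.17 in shFTO and 3.85 ± 0.17 in shScram (limma, adjusted p = 7.54e-06 and 1.19e-06). Ccl5 was at 13.7 and 33.1 TPM at Pre, 6.53 and 8.08 TPM at MCE and 7.16 and 2.74 TPM at Diff in shScram and at 109 and 89.9, 49.3 and 51.99, and 47.5 and 47.5 TPM in shFTO, and with Cxcl10 makes 2 of 23 tested chemokine genes. Psmb8, a subunit of the immunoproteasome, was at 14.6 to 33.3 TPM in shFTO and 1.97 to 5.59 TPM in shScram and, with H2-Q4, is 1 of 2 members among 31 tested genes of antigen presentation.

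Promoter sequences are shown for 3 of these genes because their levels moved together from Pre to MCE and each window holds the core of the interferon-stimulated response element. Windows run from 250 bases before to 50 after the start in RefSeq (GRCm38.p6), and a window was found by symbol for 100 of the 144 members. Members had up to 7 windows, and shares are of genes with a match in any window, so a gene with more windows has more room for a match. The letters GAAA, then 2 bases of any kind, then GAAA, were searched on both strands. They were in at least 1 window of 11 of these 100 members and of 3.99% of 27025 genes. The match in Rsad2 (chr12:26456403-26456702, minus strand), Oas1g (chr5:120887564-120887863, minus strand, where 2 matches overlap) and Cxcl10 (chr5:92348840-92349139, minus strand) is in capitals, 5′ to 3′ along the gene. In Rsad2 the match is on the other strand and reads as its reverse complement. The match did not go with the fall alone. Among the 11, Saa3 rose from Pre to MCE in both lines, and Acsbg1 fell in shFTO only. Fbn1, Mdfi, Emilin2, E2f8, Rcn3 and Gm7030 had no call at that step. Usp18, Oas2 and Cmpk2, which fell in both lines, were not among the 11. A match of letters is a description of the window and not of binding.
Rsad2: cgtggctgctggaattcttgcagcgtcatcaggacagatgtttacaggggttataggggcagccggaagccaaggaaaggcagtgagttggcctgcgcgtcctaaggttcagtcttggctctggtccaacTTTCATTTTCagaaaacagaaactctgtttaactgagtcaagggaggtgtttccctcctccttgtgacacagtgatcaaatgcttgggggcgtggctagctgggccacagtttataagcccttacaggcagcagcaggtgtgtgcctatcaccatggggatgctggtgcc
Oas1g: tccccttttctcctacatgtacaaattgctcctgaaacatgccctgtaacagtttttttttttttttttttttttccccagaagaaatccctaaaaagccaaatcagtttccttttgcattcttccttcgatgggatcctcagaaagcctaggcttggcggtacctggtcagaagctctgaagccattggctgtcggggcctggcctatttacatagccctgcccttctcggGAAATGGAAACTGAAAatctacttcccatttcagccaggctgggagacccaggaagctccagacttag
Cxcl10: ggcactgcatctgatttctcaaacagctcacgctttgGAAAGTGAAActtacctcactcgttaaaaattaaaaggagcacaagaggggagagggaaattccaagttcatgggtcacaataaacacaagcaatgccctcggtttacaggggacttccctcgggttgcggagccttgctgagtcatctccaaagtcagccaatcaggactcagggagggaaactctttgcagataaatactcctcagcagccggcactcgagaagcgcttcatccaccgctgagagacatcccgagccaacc

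Secreted signals were a further group. Il11, a cytokine of the interleukin-6 family and named after its values were seen, was at 0.533 and 0.616 TPM at Pre, 1.65 and 2.42 TPM at MCE and 0.824 and 0.355 TPM at Diff in shScram. In shFTO it was at 5.29 and 6.75, 77.5 and 83.9, and 31.2 and 29.8 TPM. It rose by 3.55 ± 0.20 from Pre to MCE in shFTO and then fell by 1.37 ± 0.20 (limma, adjusted p = 5.74e-06 and 0.00145), while the changes in shScram, 0.94 ± 0.20 and -0.94 ± 0.20, did not pass the fold limit. Lif, of the same family, was at 0.321 and 1.04 TPM at Pre, 0.703 and 0.746 TPM at MCE and 0.276 and 0.569 TPM at Diff in shScram. In shFTO it was at 4.61 and 4.28, 8.89 and 8.48, and 3.68 and 4.15 TPM, with no call in either line. Il11 and Lif are 2 of 12 tested genes of that family and receptors. Their promoter windows are shown because both hold the AP-1 letters TGANTCA, in capitals. These letters were on either strand in at least 1 window of 10 of the 100 members and of 8.97% of all genes with a window, which is a similar share. The others were Rsad2, Cxcl10, Olr1, Fblim1, Ltbp3, Sema4c, Upp1 and Ripply1. Rsad2 and Cxcl10 fell from Pre to MCE in both lines, where Il11 rose in shFTO, so the match did not go with a single course. The Il11 window is chr7:4778092-4778391, minus strand, and the Lif window is chr11:4257318-4257617, plus strand, both from RefSeq on GRCm38.p6.
Il11: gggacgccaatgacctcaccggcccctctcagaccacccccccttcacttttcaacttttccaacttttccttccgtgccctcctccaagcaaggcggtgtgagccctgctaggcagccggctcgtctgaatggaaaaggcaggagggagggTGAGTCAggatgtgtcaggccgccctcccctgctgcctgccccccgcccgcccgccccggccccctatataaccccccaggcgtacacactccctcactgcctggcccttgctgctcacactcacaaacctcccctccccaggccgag
Lif: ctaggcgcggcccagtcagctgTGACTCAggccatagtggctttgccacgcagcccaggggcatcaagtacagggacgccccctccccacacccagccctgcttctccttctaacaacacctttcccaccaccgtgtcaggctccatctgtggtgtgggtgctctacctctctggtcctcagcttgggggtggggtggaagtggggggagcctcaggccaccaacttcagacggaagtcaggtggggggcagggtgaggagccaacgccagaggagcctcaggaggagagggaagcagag

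The other motifs searched were in similar shares of the members and of all genes with a window, apart from the NF-kB motif. TATAAA was in at least 1 window of 15 of the 100 members and of 15.7% of all genes, and GGAATG, a TEAD core, in 15 and 16.6%. CACGTG, an E-box, was in 8 and 8.09%. TGACGTCA, a cyclic AMP element, was in 2 and 2.03%, and the CArG box in 1 and 1.81%. The NF-kB motif was in 13 and 5.14%. Those 13 were H2-Q4, Cxcl10, Prkd1, Eml2, Papss2, Bcl3, Zbtb4, Il4ra, Sema4c, Tyro3, Rap1gap, Ier3 and Acsbg1, genes of varied roles. The CArG box, known from smooth muscle genes, was searched as CCWWWWWWGG, where W is A or T. Among these members that exact form was found in windows of Fhl2 alone. Forms with another letter in the core were not searched, and neither were members without a window. None of these shares was tested.

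The list of FGF, EGF, VEGF and PDGF family ligands and receptors, with related factors, had 4 members of 47 tested genes. Of the 43 other genes, 4, 7 and 6 had a gap over 1 with shFTO higher at Pre, MCE and Diff and 3, 3 and 6 with shFTO lower, so the list was mixed. Hgf, the ligand of the receptor Met, was at 11.6 and 7.87 TPM at Pre, 40.6 and 41.7 TPM at MCE and 17.1 and 15.8 TPM at Diff in shScram and at 27.5 and 31.2, 144 and 143, and 79.4 and 80.8 TPM in shFTO, and rose from Pre to MCE in both lines, by 2.25 ± 0.16 in shFTO and 2.00 ± 0.16 in shScram (limma, adjusted p = 2.01e-05 and 3.69e-05). Hbegf, a ligand of the EGF receptor, was at 3.04 and 4.67 TPM at Pre, 0.896 and 1.62 TPM at MCE and 0.747 and 0.822 TPM at Diff in shScram and at 21.2 and 19.95, 4.84 and 5.602, and 3.57 and 4.86 TPM in shFTO and fell at that step in both lines, by 1.80 ± 0.23 and 1.10 ± 0.23 (adjusted p = 0.000483 and 0.00564). The change of Hbegf in shScram was -0.86 without shScram Pre replicate 2 and -0.87 without shScram MCE replicate 1, both under the fold limit. Members of one list thus took opposite courses. Areg, another EGF receptor ligand, was at 1.71 to 3.35 TPM in shFTO and at most 0.169 TPM in shScram. Angpt4, a ligand of the Tie receptors, was at 2.501 and 8.98 TPM at Pre, 3.798 and 4.35 TPM at MCE and 14.9 and 14.5 TPM at Diff in shScram. The knockdown line had 35.1 and 31.5, 34.4 and 32.6, and 63.97 and 65.7 TPM. It rose from MCE to Diff in shScram by 1.63 ± 0.38 (limma, adjusted p = 0.0146). Leaving out any 1 of the 4 shScram libraries of that step ended the call (adjusted p = 0.0706 to 0.0767).

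TGF-beta family ligands gave 3 of 43 tested genes of the pathway list. Tgfb1 itself was at 7.69 and 16.04 TPM at Pre, 13.9 and 16.4 TPM at MCE and 13.7 and 13.8 TPM at Diff in shScram. Its shFTO values were 48.6 and 52.9, 66.6 and 72.3, and 42.7 and 49.4 TPM, with no stage call in either line. Inhba, the subunit of activin A, was at 6.25 and 5.63 TPM at Pre, 2.56 and 2.97 TPM at MCE and 2.94 and 2.44 TPM at Diff in shScram. For shFTO the values were 22.04 and 24.9, 35.2 and 41.3, and 13.5 and 13.8 TPM. It fell by 1.42 ± 0.15 from MCE to Diff in shFTO (limma, adjusted p = 0.000333). Gdf11 lay at 21.4 to 34.1 TPM in shFTO and 7.40 to 11.3 TPM in shScram. Of the 40 other genes of the list, 5, 9 and 5 had a gap over 1 with shFTO higher at the 3 stages and 3, 4 and 3 with shFTO lower.

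From the AP-1 and immediate early list 5 of 32 tested genes were members: the AP-1 subunit Junb, the MAP kinase phosphatases Dusp2, Dusp4 and Dusp6, and the stress-response gene Ier3. Junb was at 7.79 and 61.8 TPM at Pre, 108 and 136 TPM at MCE and 57.96 and 51.4 TPM at Diff in shScram. Its shFTO values were 179 and 204, 445 and 483, and 271 and 298 TPM. Its shScram Pre values stood far apart, and it rose by 2.38 ± 0.69 from Pre to MCE in shScram (limma, adjusted p = 0.0241). That rise was 0.96, under the fold limit, without shScram Pre replicate 1, and its adjusted p was 0.0729 and 0.119 without shScram MCE replicate 1 and replicate 2. Dusp2, which removes phosphate from MAP kinases, rose from Pre to MCE and fell afterwards in both lines, by 3.47 ± 0.19 and 1.66 ± 0.19 in shFTO (limma, adjusted p = 4.95e-06 and 0.000463), where it was at 1.64 and 1.74, 28.2 and 29.3, and 6.78 and 10.4 TPM. Ier3 rose by 1.43 ± 0.23 from Pre to MCE in shFTO (limma, adjusted p = 0.00181). Of the 27 other genes of the list, 4, 4 and 9 had a gap over 1 with shFTO higher and 1, 0 and 0 with shFTO lower.

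Among transcription factors, Snai1, a repressor of epithelial genes, was at 14.6 and 42.01 TPM at Pre, 156 and 158 TPM at MCE and 63.1 and 68.9 TPM at Diff in shScram. In shFTO cells the levels were 101 and 91.3, 428 and 454, and 146 and 168 TPM. It peaked at MCE in both lines, with a rise of 2.19 ± 0.37 in shFTO and 2.61 ± 0.37 in shScram (limma, adjusted p = 0.00223 and 0.000804). Its late fall, called in both lines, was not called without any 1 of the 4 libraries of the step, in shFTO (adjusted p = 0.0678 to 0.0965) or in shScram (0.123 to 0.157), and the shScram call was also lost without any 1 shFTO library (0.0586 to 0.0613). Klf2, a Kruppel-like factor, went the other way in shFTO, where it was at 60.96 and 61.4, 11.2 and 12.1, and 73.8 and 77.9 TPM against 2.64 and 9.15 TPM at Pre, 4.75 and 3.66 TPM at MCE and 10.1 and 8.47 TPM at Diff in shScram. Its fall of 2.30 ± 0.38 and rise of 2.60 ± 0.38 in shFTO were called (limma, adjusted p = 0.00207 and 0.00152). Etv4, an ETS factor, fell from Pre to MCE in both lines, with an adjusted p of 0.0504 in shFTO without shFTO MCE replicate 1 and a change of -0.86 in shScram without shScram Pre replicate 2. The histone gene Hist1h4m, whose copies share sequence so that its count is uncertain, was at 0 and 0.907 TPM at Pre, 14.2 and 11.1 TPM at MCE and 3.58 and 2.41 TPM at Diff in shScram. The shFTO libraries held 3.06 and 6.51, 60.1 and 67.5, and 9.599 and 10.1 TPM. It rose from Pre to MCE and fell after it in both lines, the fall in shScram having an adjusted p of 0.0510 without shScram MCE replicate 1 and 0.0649 without shScram Diff replicate 2. Pdgfrl, a secreted receptor-like protein, had one of the largest late rises in shScram, 1.99 ± 0.20 (limma, adjusted p = 0.000284).

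The small GTPase list had 3 members of 173 tested genes (Rab12, Plekhb2 and Rap1gap) and the zinc finger list 3 of 380 (Prdm11, Zfp467 and Zfp618). Of 42 lists in all, 13 had at least 3 members and 10 had none, among them 0 of 30 ABC transporters, 0 of 26 Wnt pathway genes, 0 of 18 TNF ligands and receptors and 0 of 23 lipid droplet and triglyceride genes. No list was tested for enrichment.

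In the genome the members were spread over most chromosomes. Chromosome 7 held 17 (11.8%, against 7.71% of tested genes), chromosome 2 held 14 (9.72%, against 8.01%), and chromosome 3 held 0 (against 5.15%). Within 200 kb of another member lay 17 members, in 10 pairs. A run on chromosome 7 of GRCm38 held Tnni2, Lsp1 and Tnnt3 from 142441808 to 142516009, all on the plus strand, with 3.97 kb between Lsp1 and Tnnt3. Lsp1, an actin-binding protein of leukocytes, was at 11.9 and 19.6 TPM at Pre, 17.1 and 15.5 TPM at MCE and 18.3 and 18.97 TPM at Diff in shScram and at 78.5 and 74.8, 70.98 and 75.1, and 140.2 and 149 TPM in shFTO, a flatter course than that of the troponin genes on either side. Rsad2 and Cmpk2 lie on opposite strands of chromosome 12, 12.8 kb apart. Both fell from Pre to MCE in both lines. From MCE to Diff Cmpk2 rose in shScram by 1.05 ± 0.24 (limma, adjusted p = 0.0132), a call that was lost when any 1 of the 4 libraries of the step was left out (0.0550 to 0.0749) and under both scalings (0.60 and 0.90). The change of Rsad2 at that step was 0.31 ± 0.18 (adjusted p = 0.231). Syt13 and Prdm11 are 9.09 kb apart on opposite strands of chromosome 2, and Prdm11, a PR domain protein, was at 1.66 and 2.57 TPM at Pre, 2.15 and 2.98 TPM at MCE and 3.21 and 2.03 TPM at Diff in shScram. In shFTO cells the levels were 12.99 and 11.7, 14.3 and 17.1, and 16.7 and 15.2 TPM, without the rise that Syt13 had at MCE. On the X chromosome Ripply1, a transcriptional corepressor, and Morc4, an ATPase of the MORC family, lie 39.3 kb apart. Morc4 was under 0.1 TPM in all shScram libraries and at 5.96 and 6.33, 1.41 and 1.41, and 5.21 and 7.33 TPM in shFTO. In shFTO Ripply1 rose by 1.67 ± 0.18 from Pre to MCE, where Morc4 fell by 1.57 ± 0.17 (limma, adjusted p = 0.000168 and 0.000203). The other neighbours were Gdf11 with the integrin Itga7, Rab12 with the phosphatase Ptprm, Oas2 with Oas1g, and the adhesion molecule Nectin2 with Bcl3, a cofactor of NF-kB.

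By annotation, 142 of the 144 members (98.6%) were protein coding, against 77.6% of tested genes, and the others were the small nuclear RNA gene Rnu1a1, one of many near-identical copies, and 1 antisense gene. The longest transcript had a median length of 3218 bases, against 2790 in tested genes, and a median GC content of 53.04%, against 49.4%. On the opposite strand 58 members overlap another gene model, and on the same strand 20 do. The sources used here do not say if reads were assigned by strand. The values of those members may therefore hold reads of the other gene.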

How the data were processed

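Per the authors' methods, Trim Galore 0.6.5 removed low-quality bases, HISAT2 2.1.0 mapped the read pairs to GRCm38, and StringTie 2.1.4 gave levels for the genes of Ensembl release 102. The TPM values deposited by the authors, 1 table for the 12 libraries, were used as given. Counts, which the authors tested with DESeq2 1.30.1, were not used here. TPM keeps no depth, so precision rested on the spread between the 2 libraries of a group, pooled over all groups. No library pair held identical values. From TPM, log2(TPM + 1) was computed, and the rule that chose the members was applied to every gene. Stage contrasts within a line were fitted over the 15968 genes with at least 1 TPM in at least 2 libraries with limma 3.58.1 in R 4.3.3, a mean per group over all 12 libraries, eBayes with a trend, two-sided. The steps were tested on simulated data. Coordinates came from GENCODE M21 on GRCm38, which held 99.5% of the identifiers. The members, gene lists, named genes and tests were chosen with earlier results of these data known. Named genes are the 12 members with the widest smallest gap, the 8 highest in shFTO and 3 highest in shScram, the 3 largest rises and falls per stage contrast, members of lists with at least 3 members, members within 200 kb of another, and the 3 on each side of the limit. Alternatives were another pseudocount, 2 scalings, filters, a fit per line, eBayes without a trend, a replicate block and each library left out. Replicate numbers did not pair the libraries: deviations of same-numbered libraries correlated at -0.290 to 0.172 between groups. The values of 1 member are not reported here.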

Additional observations from a re-analysis of the deposited data

Results flagged for a closer look

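In 5 stage changes of members, both libraries of the later stage lay above both of the earlier stage in one line. In the other line they lay below them, and at least 1 line had a call. Other tested genes were not searched for this, so the count is not a trait of the members. The differences between the lines in these 5 changes were not tested, since the choice of members used both lines. From Pre to MCE, Tnc changed by 0.60 log2 units in shFTO (limma, adjusted p = 0.00785, under the fold limit) and by -1.65 in shScram (adjusted p = 2.89e-05). Lama5 changed by -1.98 in shFTO (adjusted p = 1.77e-05) and by 0.21 in shScram (adjusted p = 0.246), where it stayed under 0.5 TPM. From MCE to Diff, Saa3 changed by 2.13 in shFTO (adjusted p = 0.000681) and by -0.41 in shScram (adjusted p = 0.291). Acta2 changed by -0.89 in shFTO (adjusted p = 0.0136, under the fold limit) and by 1.64 in shScram (adjusted p = 0.000938). Ripply1 changed by 0.48 in shFTO (adjusted p = 0.0732) and by -1.04 in shScram (adjusted p = 0.0035).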

How the results depend on the processing

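The choice of members depended most on low values: with a pseudocount of 0.1 the rule chose 263 genes, among them all 144, while quantile normalization chose 126 (120 shared) and median-ratio scaling 129 (128 shared). Leaving out 1 library gave 146 to 203. For stage changes of members, a pseudocount of 0.1 gave 25 higher in shScram from Pre to MCE (16 as reported) and 32 higher from MCE to Diff (19 as reported). That last count was 10 with quantile normalization and 11 when only the libraries of the line were fitted, which also gave 4 lower (8 as reported). In shFTO from MCE to Diff, median-ratio scaling gave 18 lower (8 as reported). The cause of these shifts was not tested. Leaving out 1 library gave 25 to 27 higher and 31 to 33 lower in shFTO from Pre to MCE, 31 to 36 and 6 to 9 from MCE to Diff, and in shScram 15 to 24 and 18 to 35, then 13 to 19 and 6 to 9. A lone library left in a group was assumed to vary like the others. With the replicate number as a block, 26 members were higher and 32 lower in shFTO from Pre to MCE, and no count of members changed by more than 1. Over the 170 stage changes called in members, 3380 recomputations gave 3201 with the same direction and call, 179 with the same direction and no call, and 0 reversed. Many of these could not reverse a change. The filters, the fit per line, eBayes without a trend, the block and leaving out a library of another group keep the estimate as it was. Only the pseudocount, the scalings and leaving out a library of the step itself could move it. Among those described above, calls were also lost by Rgs16 in shFTO from MCE to Diff with a pseudocount of 0.1 (adjusted p = 0.116), by Actg2 in shFTO at both steps (0.0927 and 0.140) and Hist1h4m from MCE to Diff in both lines (0.0504 and 0.117) with that pseudocount, by Junb in shScram and Snai1 from MCE to Diff in both lines without the filter on low values (0.0750, 0.05005 and 0.0937), by Col28a1 in shScram from MCE to Diff with quantile normalization (0.74, under the fold limit), by Hbegf in shScram from Pre to MCE with both scalings (-0.88 and -0.96), and by Ccn5 in shScram from MCE to Diff when only that line was fitted (adjusted p = 0.0557). Fitting only that line also ended the shScram calls of Junb, Angpt4, Snai1, Hist1h4m, Cmpk2 and Etv4 given above (adjusted p from 0.0536 to 0.170). The depth behind each value is unknown, so low values carry an error that was not measured.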
